A study of Homo sapiens with 16 samples.

Results

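The BH3-only genes and the BCL2 effectors were followed on expression arrays of LP-1, a human multiple myeloma (MM) cell line with a TRAF3 deletion. The set held 10 genes, of 20503 gene symbols that the array's transcript accessions could be matched to. They were the 8 BH3-only genes PMAIP1 (NOXA), BBC3 (PUMA), HRK, BIK, BMF, BAD, BID and BCL2L11 (BIM), and the effectors BAX and BAK1. A gene entered through the probes whose transcript accession maps to its symbol, which gave 15 probes of 50599 on the array. Of these, 14 were read well above background by both replicates of some condition and were tested. All 10 genes had a tested probe, and the brightest tested probe of each was well above background on 16 of 16 arrays.

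The study compared a pair of LP-1 derivatives. LP-1-eGFP, called control cells below, carried a lentiviral pIRES2 vector that expresses eGFP only, and LP-1-cIAP2-eGFP, called cIAP2 cells below, carried the same vector with cIAP2 (the product of BIRC3) in addition. Both were made by transduction followed by sorting on eGFP, so each is a sorted population of 1 cell line. Cells of each line were left untreated or received 10 nM bortezomib, a proteasome inhibitor, and were harvested at 6 h or 24 h. Each of the 8 conditions had 2 biological replicates with 1 array each, 16 arrays in all, and the small number of arrays limits the precision of every value below.

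BH3-only proteins are the sensors of the mitochondrial pathway of apoptosis. Each carries the short BH3 motif, with which it binds and neutralizes pro-survival BCL2 proteins or activates BAX and BAK1, and the activated effectors permeabilize the outer mitochondrial membrane. PMAIP1 binds chiefly MCL1, is a short-lived protein itself, and is known as one of the genes induced by proteasome inhibitors in myeloma cells. Plasma cells and MM cells are known to depend on pro-survival BCL2 proteins, MCL1 above all.

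PMAIP1, BBC3 and HRK were the members that rose after 24 h of bortezomib in both lines, and the stretches around their start sites are shown so that the promoters of the genes that moved together can be read side by side. They are RefSeq sequences of build GRCh38.p14, from 250 bases before to 50 bases after the start, 5′ to 3′ on the gene's strand. They lie at chr18:59899746-59900045 (plus strand) for PMAIP1, chr19:47232618-47232917 (minus strand) for BBC3 and chr12:116881392-116881691 (minus strand) for HRK. Capitals mark a match to the C/EBP-ATF response element or to the core of the cAMP response element.
PMAIP1: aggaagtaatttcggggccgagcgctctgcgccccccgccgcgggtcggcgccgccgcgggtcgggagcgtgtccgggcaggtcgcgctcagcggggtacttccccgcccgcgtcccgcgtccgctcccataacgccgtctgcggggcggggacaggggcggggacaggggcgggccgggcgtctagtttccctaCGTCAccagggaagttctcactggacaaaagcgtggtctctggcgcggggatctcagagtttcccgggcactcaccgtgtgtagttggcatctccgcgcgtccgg
BBC3: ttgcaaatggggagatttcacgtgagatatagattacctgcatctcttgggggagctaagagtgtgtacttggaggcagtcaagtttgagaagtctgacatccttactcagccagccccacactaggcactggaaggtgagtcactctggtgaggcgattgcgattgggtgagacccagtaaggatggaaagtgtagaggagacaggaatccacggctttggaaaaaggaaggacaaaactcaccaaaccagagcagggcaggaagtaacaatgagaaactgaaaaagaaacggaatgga
HRK: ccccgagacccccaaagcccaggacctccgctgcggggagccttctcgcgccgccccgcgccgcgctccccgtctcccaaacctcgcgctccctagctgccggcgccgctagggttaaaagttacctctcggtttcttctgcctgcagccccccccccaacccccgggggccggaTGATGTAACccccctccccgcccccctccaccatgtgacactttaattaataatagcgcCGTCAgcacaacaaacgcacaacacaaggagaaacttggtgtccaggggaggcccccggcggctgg
Both strands were searched for TGATGNAAN (the C/EBP-ATF response element, bound by ATF4 and CHOP dimers), TGACGTCA (the full cAMP response element) and TGACG (its core, which the full site contains). The C/EBP-ATF element occurred in the HRK stretch, starting at position -75, and in the stretches of none of the other 8 members found in the promoter table, against 4.45% of all 27305 gene symbols there. The core occurred in 5 of 9 members, among them PMAIP1 (position -55 on the opposite strand) and HRK (position -16 on the opposite strand), against 28.4% of all symbols. No member stretch held the full cAMP response element, found for 2.25% of symbols. The BBC3 stretch held none of the 3 motifs. Its base composition was 48% G or C, against 71.3% for PMAIP1, 66.3% for HRK and a median of 58.7% over 35116 promoter stretches. Such matches describe these windows and are not evidence of binding.

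Array quality and the labels were examined first. One array, replicate 1 of cIAP2 cells after 24 h of bortezomib, stood apart from the other 15. Its median log2 signal before normalization was 3.18, against 5.71 to 6.55 on the other arrays, and 35.5% of its spots were well above background, against 49% to 71.1%. The standard deviation of the difference between the 2 replicates of its condition was 1.48 on the log2 scale, against 0.495 to 0.773 in the other 7 conditions. It is called the dim array below, and values of cIAP2 cells at 24 h of bortezomib are given without it too where the call or the size changes, and for the members called. Leaving out any array leaves its condition with 1 array, whose spread is then assumed to be that of the other conditions in the limma fit, so such a p-value does not measure the spread within that condition. The arrays lay on 2 slides, 6 cIAP2 arrays and 2 control arrays on slide 1 and the reverse on slide 2, so values within a slide, mostly of 1 array against 1 or 2, are given beside the members called.

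The BIRC3 probe is described in the methods as reading the endogenous transcript and not the transgene. Its signal was lower in cIAP2 cells by a log2 difference of -1.16 averaged over the conditions (adjusted p = 7.42e-06). The 2 lines did not overlap among untreated arrays, where BIRC3 lay at 13.54, 13.55, 13.57 and 13.67 in control cells and at 11.92, 11.92, 12.06 and 12.13 in cIAP2 cells. This probe gives no value for the transgene. As a check of cell identity, the plasma cell genes SDC1, TNFRSF17, IRF4, XBP1 and CD38 were well above background on 16 of 16 arrays and PRDM1 on 15, whereas the B cell genes MS4A1 and PAX5 were above background on 0 arrays. The keratins KRT8 and KRT18 were above background on all 16.

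Action of the drug was visible in all bortezomib-treated conditions. Of 10 markers of proteotoxic stress, 8 were higher at 6 h in each line and 10 at 24 h in each line. Of all tested gene symbols, 1.91% were higher at 6 h and 13.3% at 24 h in control cells. In cIAP2 cells these shares were 1.11% and 14.4%. The chaperone HSPA1B, which shares near-identical sequence with HSPA1A so that the paralogs may not be told apart, rose by a log2 fold change of 5.61 at 24 h in control cells and 4.87 in cIAP2 cells. The co-chaperones DNAJB1 and BAG3 rose by 4.50 and 4.67 in control cells and by 4.79 and 4.60 in cIAP2 cells. The HSPA1A probe rose by 1.89 and 3.33, was well above background on 6 arrays, and rose by 4.47 in cIAP2 cells without the dim array. Untreated 24 h control replicate 1 lay apart from its replicate. Without this array, the values in control cells were 4.88 for HSPA1B, 3.83 for DNAJB1 and 1.87 for HSPA1A. HSPA1A was then not the only marker to lose its call.

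The first comparison asked which BH3-only genes and effectors respond to bortezomib in the control line. At 24 h, 4 of 10 members were higher and none lower at an adjusted p under 0.05 (limma, adjusted by Benjamini-Hochberg over all tested probes). The members were PMAIP1, BBC3, HRK and BAD. Among all 16398 tested gene symbols, 13.3% were called higher and 15.1% lower in the same comparison. At 6 h, 1 of 10 members, BBC3, was higher, against 1.91% of all symbols higher and 0.957% lower. A further 3 members, PMAIP1, HRK and BID, had an unadjusted p under 0.05 at 6 h, as did 15.6% of all symbols. In cIAP2 cells at 24 h, PMAIP1, BBC3 and HRK were higher and BAX was lower, against 14.4% of symbols higher and 22% lower. At 6 h BBC3 alone was higher in this line, against 1.11% of symbols higher and 0.366% lower, and PMAIP1 and HRK had an unadjusted p under 0.05 besides, as did 13.1% of all symbols. With each array scaled to its 75th percentile, higher genes made up 86.2% of all calls in that last comparison, against 75.2% with quantile normalization. The share of all symbols called moved when the dim array was left out. It rose in control cells, where 3 members passed at 6 h, beside 8.8% of all symbols in either direction, and 7 at 24 h, beside 40.8%. In cIAP2 cells 1 member passed at 6 h, beside 5.34% of symbols, and 3 at 24 h, beside 35.4%. Leaving out 1 or the other bortezomib 24 h array of control cells, 2 passed at 24 h in that line, beside 18.4% and 21.8% of symbols. The arrays read bulk RNA, in which fewer cells of a type and less RNA per cell cannot be told apart.

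**Figure D1:**
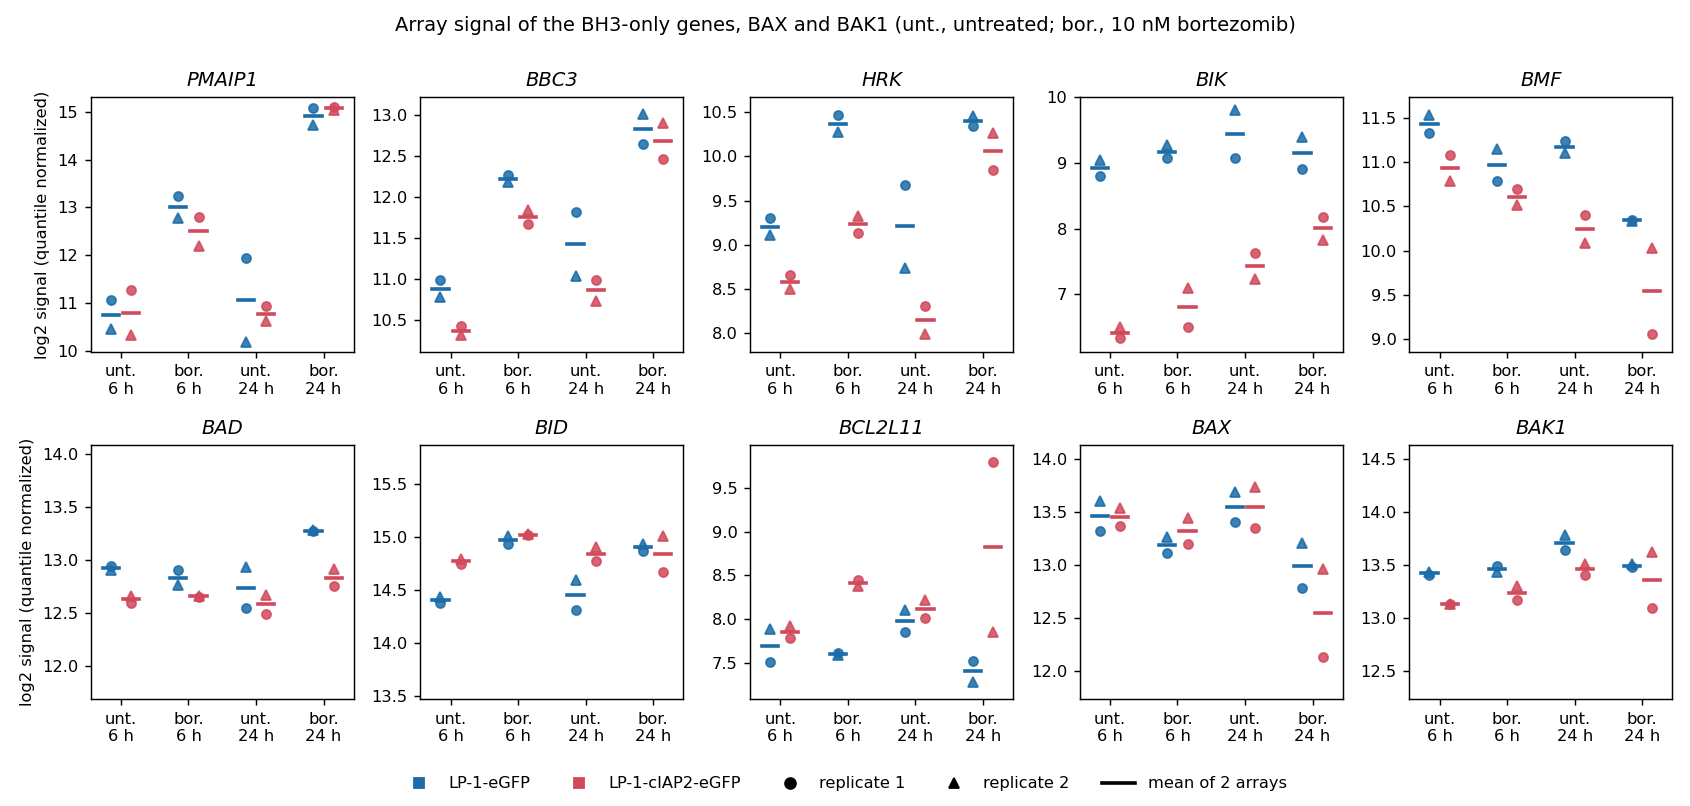
Quantile-normalized log2 signal (y axis) of each of the 10 genes in the 8 conditions (x axis), with circles for replicate 1, triangles for replicate 2 and a bar at the mean of the 2 arrays, LP-1-eGFP in blue and LP-1-cIAP2-eGFP in red. PMAIP1 rose from 10.18 to 11.94 in untreated 24 h arrays to between 14.73 and 15.11 after 24 h of bortezomib, and BIK lay lower on every LP-1-cIAP2-eGFP array than on any LP-1-eGFP array. Each panel has its own y axis and does not start at 0.

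PMAIP1 showed the largest change of the 10 members in each of the 4 bortezomib comparisons. In control cells its log2 signal was 11.06 and 10.45 untreated at 6 h and 13.23 and 12.78 with bortezomib at 6 h. At 24 h it was 11.94 and 10.18 untreated and 15.09 and 14.73 with bortezomib. Both bortezomib arrays were above both untreated arrays at each time, and the untreated 24 h arrays were the pair that lay farthest apart. The share of all symbols without overlap between treated and untreated arrays is not given, so this and like statements below describe the arrays only. The change at 24 h was a log2 fold change of 3.85 ± 0.53 (SE, n = 2 per condition), or 14.4-fold, with an adjusted p of 0.000741. Since the untreated 24 h arrays lay apart, this value was 4.73 (adjusted p = 0.000444) without untreated replicate 1 and 2.97 (adjusted p = 0.0033) without untreated replicate 2. The change at 6 h was 2.25 ± 0.53, or 4.76-fold, with an adjusted p of 0.071, and did not pass the threshold. It passed in 7 of 26 settings of the analysis, among them array weights (adjusted p = 0.00228) and the replicate number as a block (adjusted p = 0.0158).

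In cIAP2 cells the PMAIP1 signal was 11.27 and 10.32 untreated and 12.81 and 12.20 with bortezomib at 6 h. At 24 h it was 10.93 and 10.62 untreated and 15.11 and 15.05 with bortezomib. Again the treated and untreated arrays did not overlap at either time. The log2 fold change was 4.31 ± 0.53 at 24 h, or 19.8-fold (adjusted p = 0.000299), and 1.71 ± 0.53 at 6 h (adjusted p = 0.217). Without the dim array, the value at 24 h was 4.27 (adjusted p = 0.00193). Compared within a slide, the differences were 1.94 at 6 h and 3.67 at 24 h on slide 2 for control cells, and 1.23 at 6 h and 4.15 at 24 h on slide 1 for cIAP2 cells.

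Among bortezomib-treated cells, PMAIP1 was also higher at 24 h than at 6 h, by 1.91 ± 0.53 in control cells (adjusted p = 0.0428) and by 2.58 ± 0.53 in cIAP2 cells (adjusted p = 0.0077), or 2.54 (adjusted p = 0.0299) without the dim array. PMAIP1 was the 1 member of 10 that passed in this comparison in control cells, where 8.07% of symbols were called higher. Between untreated cells at 24 h and 6 h, 0 of 10 members passed in limma in either line, where 0% of symbols were called in control cells and 0.0122% in cIAP2 cells. At an unadjusted p under 0.05, 0 members differed by time among untreated control arrays, beside 3.13% of symbols, and 2, BMF and BIK, among untreated cIAP2 arrays, beside 3.25%.

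BBC3 encodes PUMA, which binds all pro-survival BCL2 proteins. It was the 1 member called at 6 h in both lines. Its log2 signal in control cells was 10.98 and 10.78 untreated and 12.27 and 12.18 with bortezomib at 6 h, and 11.82 and 11.03 untreated and 12.65 and 13.02 with bortezomib at 24 h. In cIAP2 cells it was 10.42 and 10.31 untreated and 11.67 and 11.84 with bortezomib at 6 h, and 10.99 and 10.73 untreated and 12.46 and 12.91 with bortezomib at 24 h. Treated arrays were above untreated arrays in all 4 comparisons, without overlap. In control cells the log2 fold change was 1.34 ± 0.264 at 6 h (adjusted p = 0.0358) and 1.41 ± 0.264 at 24 h (adjusted p = 0.00402). In cIAP2 cells it was 1.40 ± 0.264 at 6 h (adjusted p = 0.043) and 1.83 ± 0.264 at 24 h (adjusted p = 0.000752). The 2 calls at 6 h lay close to the threshold, and over 26 settings of the analysis they held in 12 for control cells and 11 for cIAP2 cells, whereas both calls at 24 h held in 26 of 26. Without the dim array the 24 h change in cIAP2 cells was 2.05 (adjusted p = 0.00122). BBC3 was not called between 24 h and 6 h of bortezomib in control cells, and in cIAP2 cells it was higher at 24 h than at 6 h by 0.93 ± 0.264 (adjusted p = 0.0328), or 1.16 (adjusted p = 0.0262) without the dim array. Within slides, the bortezomib differences of BBC3 were 1.24 and 1.59 in control cells and 1.34 and 1.70 in cIAP2 cells at 6 h and 24 h.

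HRK, a BH3-only gene best known from neurons, was the third member to rise. In control cells its log2 signal was 9.30 and 9.11 untreated and 10.47 and 10.27 with bortezomib at 6 h, and 9.68 and 8.74 untreated and 10.34 and 10.46 with bortezomib at 24 h. In cIAP2 cells it was 8.66 and 8.5 untreated and 9.13 and 9.33 with bortezomib at 6 h, and 8.31 and 7.99 untreated and 9.85 and 10.26 with bortezomib at 24 h. Treated and untreated arrays did not overlap in any of the 4 comparisons. Nor did those of BMF on its brightest probe, where the treated arrays were the lower ones. The rise at 24 h was 1.19 ± 0.282 in control cells (adjusted p = 0.0136) and 1.90 ± 0.282 in cIAP2 cells (adjusted p = 0.000887), or 2.29-fold and 3.73-fold. The values at 6 h were 1.17 ± 0.282 (adjusted p = 0.0787) and 0.65 ± 0.282 (adjusted p = 0.448). The call in control cells was lost without either bortezomib array at 24 h (adjusted p = 0.0558 and 0.0709), where the log2 fold change was 1.26 and 1.13, and without untreated replicate 2 (adjusted p = 0.0782, log2 fold change 0.73). In cIAP2 cells the change without the dim array was 2.11 (adjusted p = 0.00182). Within slides, the HRK differences at 24 h were 1.26 in control cells and 1.74 in cIAP2 cells.

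BAD, which binds BCL2 and BCL-XL and is held inactive by phosphorylation, had a small rise in control cells. Its signal at 24 h was 12.54 and 12.93 untreated and 13.27 and 13.28 with bortezomib in control cells, a log2 fold change of 0.54 ± 0.155 (adjusted p = 0.0334). In cIAP2 cells it was 12.49 and 12.67 untreated and 12.75 and 12.91 with bortezomib, with a value of 0.25 ± 0.155 (adjusted p = 0.255). The call in control cells held in 11 of 26 settings, and without untreated replicate 1 at 24 h the value was 0.35 (adjusted p = 0.197). Within slide 2 the BAD difference was 0.54.

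BMF and BID did not pass the threshold in any bortezomib comparison. BMF is held by a dynein light chain in healthy cells. Its log2 values at 24 h were -0.82 ± 0.288 in control cells (adjusted p = 0.0741) and -0.70 ± 0.288 in cIAP2 cells (adjusted p = 0.0986). The value in cIAP2 cells was -0.21 (adjusted p = 0.551) without the dim array. The second BMF probe gave -0.17 and 0.30, or 0.42 without the dim array, whose reading of that probe was not well above background. BID, which caspase-8 cleaves to its active form, gave 0.56 ± 0.154 at 6 h (adjusted p = 0.115) and 0.44 ± 0.154 at 24 h (adjusted p = 0.0714) in control cells, and 0.25 and 0.00 in cIAP2 cells. Its second probe gave 0.51 and 0.48 in control cells.

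BIK and BCL2L11 were not called in any of the 4 bortezomib comparisons. BCL2L11 encodes BIM, a BH3-only protein with several splice forms that binds all pro-survival BCL2 proteins. Its brightest probe lay between 7.29 and 8.45 on 15 of the 16 arrays and at 9.79 on the dim array, whose replicate lay at 7.86. A second BCL2L11 probe of the same transcript behaved alike, with 9.36 on the dim array and 6.26 on its replicate. The third probe, assigned to another BCL2L11 transcript, was well above background on 0 of 16 arrays. The log2 fold change at 24 h in cIAP2 cells was 0.71 ± 0.471 (adjusted p = 0.288) with the dim array, -0.26 (adjusted p = 0.409) without it and 1.67 (adjusted p = 0.000147) with the dim array alone, so this value turned on 1 array.

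The effectors did not rise. BAX lay at 13.41 and 13.69 untreated and 12.78 and 13.21 with bortezomib at 24 h in control cells, a log2 value of -0.56 ± 0.282 (adjusted p = 0.218). In cIAP2 cells it lay at 13.35 and 13.74 untreated and 12.13 and 12.96 with bortezomib, and fell by 1.00 ± 0.282 on the log2 scale (adjusted p = 0.0255). The 12.13 was read on the dim array, and without it the value was -0.58 with an adjusted p of 0.132. The second BAX probe, assigned to another transcript, gave -1.21 (adjusted p = 0.108) in control cells and -2.28 (adjusted p = 0.00567) in cIAP2 cells, with 7.54 and, on the dim array, 5.92 after 24 h of bortezomib. The 5.92 was not well above background, so 1 of these 2 arrays measured that probe, and without the dim array the value was -1.47 (adjusted p = 0.0185). The BAX call was also lost with the slide as a block, where the value was -0.91 (adjusted p = 0.0645), and within slide 1 the difference was -0.80. BAK1 lay between 13.09 and 13.78 on all 16 arrays and gave -0.22 ± 0.17 (adjusted p = 0.47) and -0.11 ± 0.17 (adjusted p = 0.667) at 24 h.

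**Figure D2:**
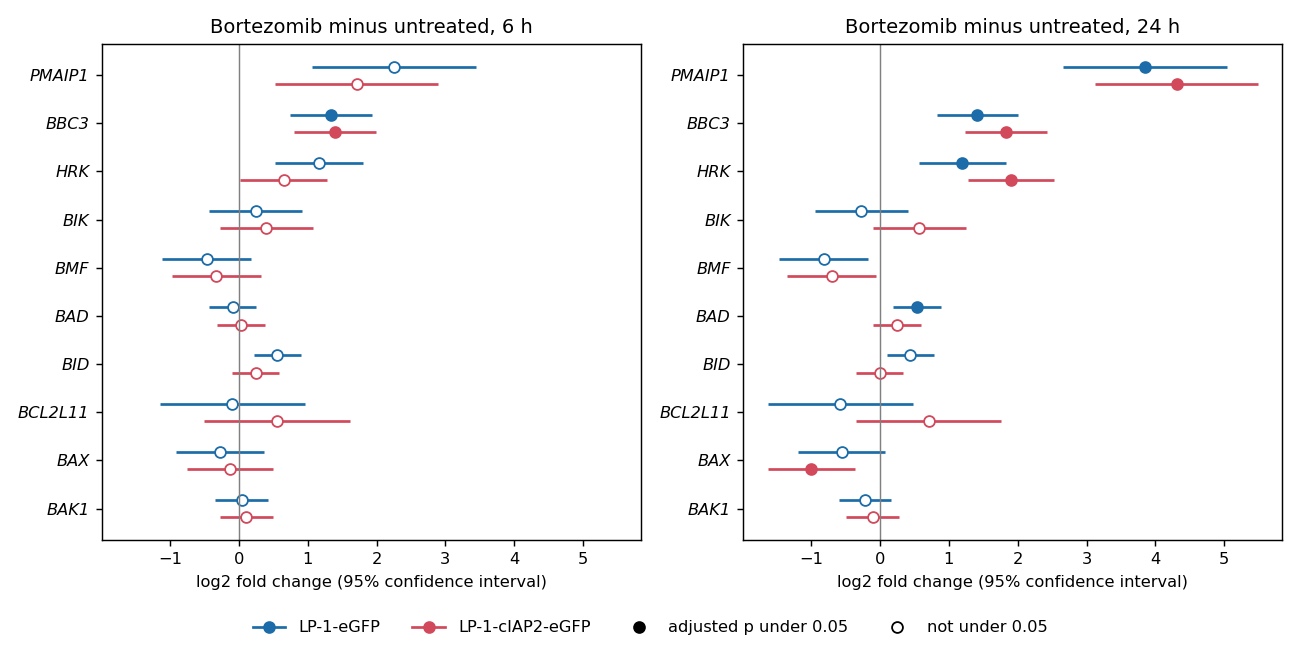
Log2 fold change of bortezomib over untreated (x axis) for each gene (y axis) at 6 h (left) and 24 h (right), LP-1-eGFP in blue and LP-1-cIAP2-eGFP in red, with 95% confidence intervals from the limma fit of all 16 arrays. Filled points passed an adjusted p of 0.05. PMAIP1 stood farthest right with 3.85 and 4.31 at 24 h, followed by BBC3 and HRK, and BAX lay left of 0.

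Over the 10 members, the median log2 fold change at 24 h was 0.11 in control cells and 0.41 in cIAP2 cells, beside medians over all genes of -0.03 and -0.16. In cIAP2 cells the medians without the dim array were 0.25 for the members and -0.01 for all genes. Scaling each array to its 75th percentile moved the all-gene median in cIAP2 cells at 24 h by 0.19, to 0.03. Relative to the median of -0.16, the changes in this comparison were 4.46 for PMAIP1, 2.06 for HRK, 1.99 for BBC3 and -0.84 for BAX.

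Among bortezomib-treated cIAP2 cells, 3 members were higher and 1 lower at 24 h than at 6 h, against 10.9% of symbols higher and 16.9% lower. With the dim array left out 2 members, PMAIP1 and BBC3, were higher and 0 lower, against 13.9% of symbols in each direction. BIK was higher by 1.2 ± 0.302 (adjusted p = 0.0196), from 6.51 and 7.10 to 8.18 and 7.83, and gave 1.02 (adjusted p = 0.0849) without the dim array. BMF was lower by a log2 difference of -1.06 ± 0.288 (adjusted p = 0.0277), from 10.69 and 10.51 to 9.06 and 10.03, the lower of which came from the dim array, and without it the value was -0.57 (adjusted p = 0.103). The second BMF probe gave 0.40 (adjusted p = 0.278). BAX gave -0.78 (adjusted p = 0.0782) on its brightest probe and -2.15 (adjusted p = 0.0106) on its second. The dim array's reading of that second probe was not well above background. Without the dim array these BAX values were -0.36 and -1.34. In untreated cells of the same line, BIK went from 6.33 and 6.50 at 6 h to 7.63 and 7.23 at 24 h, a difference that did not pass the threshold.

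The next comparison asked whether forced cIAP2 expression came with other levels of these genes. Averaged over treatment and time, 4 of 10 members were lower in cIAP2 cells and 0 were higher, against 12.7% of all symbols lower and 9.04% higher. The 4 were BIK, HRK, BMF and BAD. At an unadjusted p under 0.05 there were 8 members, beside 34.7% of all symbols. Without the dim array 6 passed the adjusted threshold, 4 lower and 2 higher, beside 30.9% of symbols in either direction. Under the stricter rule of the methods (adjusted p below 0.001, change above 2-fold), 1 of 10 members passed, which was BIK, against 3.31% of symbols.

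BIK, a BH3-only protein of the endoplasmic reticulum, differed most. Its log2 signal on the 8 control arrays ran from 8.80 over a median of 9.07 to 9.80, and on the 8 cIAP2 arrays from 6.33 over 7.17 to 8.18. No array of one line reached the range of the other. The log2 difference was -2 ± 0.151, or 4.01-fold lower (adjusted p = 1.84e-05), and -2.05 without the dim array (adjusted p = 3.72e-05). The differences between the means were -2.51 and -2 in untreated cells at 6 h and 24 h, and -2.36 and -1.15 in bortezomib-treated cells at 6 h and 24 h. On slide 1 the difference was -2.71 in untreated cells at 6 h and -0.90 with bortezomib at 24 h, and on slide 2 it was -2.30 and -2.20 in untreated cells at 6 h and 24 h.

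HRK was lower in cIAP2 cells by a log2 difference of -0.79 ± 0.141 (adjusted p = 0.00383). Its 4 untreated arrays in this line, at 7.99 to 8.66, all lay below the 4 untreated control arrays, at 8.74 to 9.68, while the ranges over all 8 arrays of each line overlapped. BMF was lower by -0.65 ± 0.144 (adjusted p = 0.0128), and its second probe gave -0.70 ± 0.126 (adjusted p = 0.00415), although 2 of its 8 readings in cIAP2 cells were not well above background. Without the dim array the values were -0.74 for HRK (adjusted p = 0.00602), -0.52 for BMF (adjusted p = 0.00395) and -0.67 for the second BMF probe (adjusted p = 0.00653). Within slides, the differences ran from -1.21 to -0.29 for HRK and from -1.07 to -0.46 for BMF over 4 matched conditions. The BAD difference was small, at -0.26 ± 0.0776 (adjusted p = 0.0462), and the call held in 7 of 26 settings, with within-slide differences from -0.44 to -0.06.

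PMAIP1 differed between the lines by -0.14 ± 0.265 (adjusted p = 0.774), with a 95% confidence interval of -0.74 to 0.45. BBC3 gave -0.42 ± 0.132 (adjusted p = 0.0575), BCL2L11 0.63 ± 0.236 (adjusted p = 0.108), BID 0.18 ± 0.0769 (adjusted p = 0.152), BAX -0.08 ± 0.141 (adjusted p = 0.757) and BAK1 -0.23 ± 0.0849 (adjusted p = 0.106). The BID average joined unlike conditions. In untreated cells BID was higher in cIAP2 cells by 0.37 at 6 h and 0.38 at 24 h, at 14.75 to 14.91 against 14.32 to 14.60. With bortezomib its differences were 0.05 and -0.06. Leaving out the dim array, BCL2L11 passed at 0.39 (adjusted p = 0.0105) and BID at 0.23 (adjusted p = 0.0277), while the second BCL2L11 probe went from 0.36 (adjusted p = 0.592) to -0.03 (adjusted p = 0.916).

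**Figure D3:**
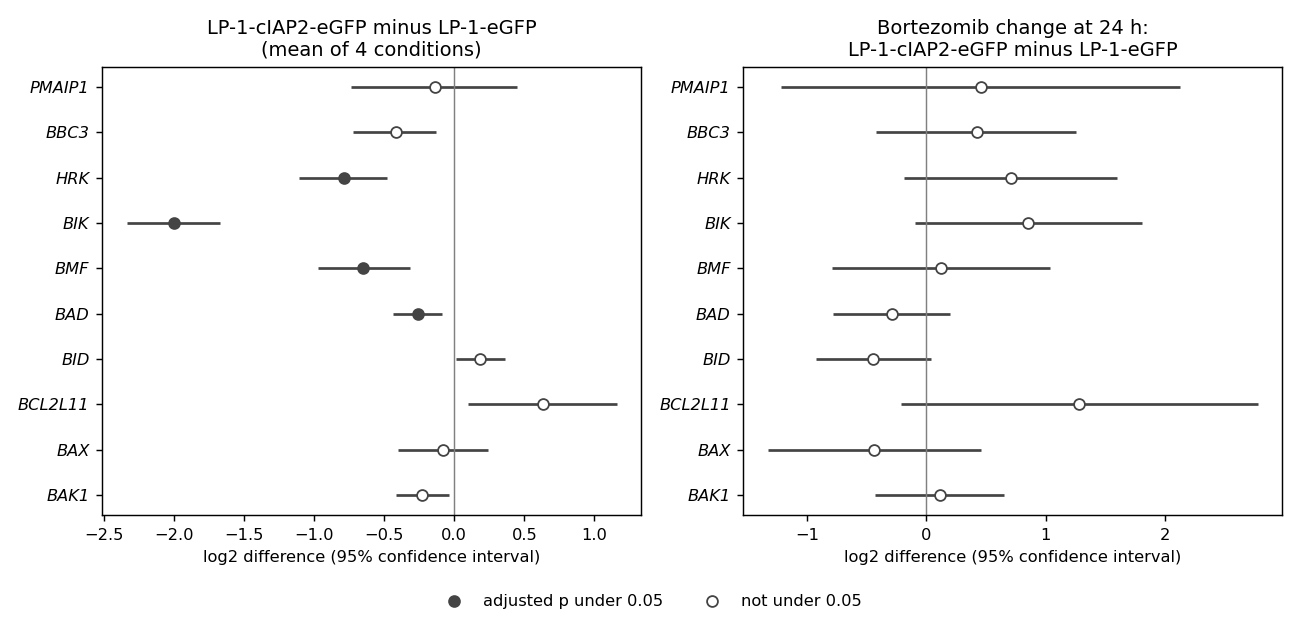
Left, log2 difference of LP-1-cIAP2-eGFP from LP-1-eGFP averaged over the 4 treatment and time conditions, and right, difference between the lines in the log2 fold change under 24 h of bortezomib (x axes), for each gene (y axis) with 95% confidence intervals. Filled points passed an adjusted p of 0.05. BIK lay at -2 on the left, and every interval on the right included 0.

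Whether the response to bortezomib itself differed between the lines was tested as an interaction. At 24 h, 0 of 10 members passed in limma and 0 had an unadjusted p under 0.05, against 0.104% of all symbols called in either direction and 8.71% at an unadjusted p. At 6 h the counts were 0 and 0, against 0% and 1.54% of symbols. For PMAIP1 the 24 h difference between the 2 responses was 0.46 ± 0.749 (adjusted p = 0.812), with a 95% confidence interval of -1.22 to 2.13. For HRK it was 0.71 with an interval of -0.19 to 1.60, for BIK 0.85 with -0.10 to 1.81, for BBC3 0.42 with -0.42 to 1.25 and for BAX -0.44 with -1.33 to 0.46. The largest estimate was that of BCL2L11, 1.28 with -0.21 to 2.78, and it was 0.32 without the dim array. For BID the estimate was -0.45 with -0.93 to 0.04. Without the dim array the estimates were 0.91 for HRK, then the largest, 0.68 for BIK, 0.64 for BBC3, -0.28 for BID and -0.02 for BAX. Without untreated 24 h control replicate 1 they were 0.24 for HRK, 1.22 for BIK, 0.02 for BBC3, -0.31 for BID and -0.30 for BAX. The PMAIP1 estimate turned to -0.42 (adjusted p = 0.804) without untreated 24 h control replicate 1, so its sign rested on 1 array. Leaving out the dim array, 0 members passed, while leaving out the other array of that condition BCL2L11 passed at 2.25 (adjusted p = 0.000438) and BID at -0.62 (adjusted p = 0.0358), beside 27.9% of symbols.

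The partners and regulators of these genes give the setting. Beside the list counts below, 13.3% of all symbols were higher and 15.1% lower at 24 h in control cells. In cIAP2 cells the shares were 14.4% and 22%. At 6 h, 1.91% were higher in control cells and 1.11% in cIAP2 cells. Counts with an array left out are not read against these shares. Of the 6 pro-survival BCL2 genes, 0 were higher and 2 were lower at 24 h of bortezomib in control cells, and 0 were higher and 3 lower in cIAP2 cells, with medians of -0.26 and -0.54. BCL2L1, which encodes BCL-XL, fell by 1.60 (adjusted p = 0.000247) and 1.44 (adjusted p = 0.000331) on the log2 scale, from 10.71 and 10.73 to 9 and 9.23 in control cells and from 9.66 and 9.51 to 7.86 and 8.42 in cIAP2 cells. BCL2 fell by 0.90 (adjusted p = 0.0111) and 1.22 (adjusted p = 0.00177). BCL2A1 gave -0.43 (adjusted p = 0.21) and -0.65 (adjusted p = 0.0434). In cIAP2 cells the values without the dim array were -1.16 (adjusted p = 0.000356) for BCL2L1, -1.23 (adjusted p = 0.00606) for BCL2 and -0.36 (adjusted p = 0.208) for BCL2A1, so 2 of the 6 were lower, with a median of -0.27. In control cells the BCL2 call was lost without untreated 24 h replicate 1, at -0.62 (adjusted p = 0.0724), which left 1 of the 6 lower.

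MCL1, the main partner of NOXA, gave values of -0.02 (adjusted p = 0.975) and 0.17 (adjusted p = 0.6), the latter 0.46 (adjusted p = 0.169) without the dim array, and its signal lay between 12.27 and 13.28 on all 16 arrays. BCL2L2 gave -0.10 and -0.04. BCL2L10 gave 2.45 (adjusted p = 0.168) in control cells, read at 8.61 and 5.98 on their 2 bortezomib arrays. In cIAP2 cells it gave -0.42, or 1.27 without the dim array. There, untreated 24 h replicate 2 had no value and the dim array's reading was not well above background. The BCL2L10 probe was well above background on 10 of 16 arrays, so the size of these changes is uncertain. At 6 h, 0 of the 6 passed in limma in either line. Between the lines, BCL2L1 was lower in cIAP2 cells by -1 (adjusted p = 5.79e-05) and MCL1 by -0.40 (adjusted p = 0.04).

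Among 14 genes listed as acting on BH3-only genes, 6 were higher and 3 lower at 24 h in control cells, and 7 higher and 3 lower in cIAP2 cells, with medians of 0.06 and 0.45. ATF3, a stress-induced transcription factor, rose by 4.38 (adjusted p = 0.000406) and 6.96 (adjusted p = 2.55e-05). DDIT3, which encodes CHOP, rose by 3.47 (adjusted p = 0.000894) and 4.70 (adjusted p = 0.000127), and JUN by 4.14 and 4.15. TRIB3, which encodes a pseudokinase and not a transcription factor, rose by 2.13 and 2.18. ATF3 and DDIT3 were already higher at 6 h, ATF3 by 3.41 (adjusted p = 0.0154) and 2.91 (adjusted p = 0.0396) and DDIT3 by 2.81 (adjusted p = 0.023) and 2.66 (adjusted p = 0.0396), with 5 of 14 genes called higher at 6 h in control cells and 2 in cIAP2 cells. MYC and E2F1, named after their values were seen, were among those that fell. The rises in cIAP2 cells without the dim array were 6.99 for ATF3, 5.04 for DDIT3, 4.35 for JUN and 2.41 for TRIB3, and 8 genes were higher and 2 lower, with a median of 0.60. In control cells the rises without untreated 24 h replicate 1 were 5.36 (adjusted p = 0.000209) for ATF3 and 4.46 (adjusted p = 0.00012) for DDIT3.

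Of 9 tested genes of the wider BCL2 family, 4 were higher and 0 lower at 24 h in each line. These were BCL2L13 with 0.73 and 1.14, BNIP3L with 0.80 and 1.01, MOAP1 with 0.80 and 0.81 and BNIP2 with 0.43 and 0.74. BNIP3L and BCL2L13 are mitophagy receptors, and MOAP1 is an adaptor that binds BAX. Of 14 genes whose products bind or modify BH3-only proteins, 4 were higher and 3 lower in control cells, and 3 higher and 5 lower in cIAP2 cells. DYNLL2, the dynein light chain that holds BMF, rose by 1.13 (adjusted p = 0.00193) and 1.04 (adjusted p = 0.0024). The 14-3-3 genes YWHAE, YWHAQ and YWHAH, whose products hold phosphorylated BAD in the cytosol, fell by 0.89, 0.52 and 0.49 in control cells and by 1.28, 0.75 and 0.56 in cIAP2 cells. The 14-3-3 genes did not move as one, since YWHAG, named with the next 2 genes after their values were seen, rose by 0.55 (adjusted p = 0.0237) and 0.47 (adjusted p = 0.038), YWHAB gave -0.06 and 0.09, and YWHAZ gave -0.29 (adjusted p = 0.135) and -0.40 (adjusted p = 0.0335). With the dim array left out, 4 genes of the wider family were higher and 0 lower in cIAP2 cells, with a median of 0.33 against 0.74 with it, and of the binding genes 3 were higher and 4 lower. In control cells the calls of BCL2L13, MOAP1, YWHAG, YWHAH and YWHAQ were lost without untreated 24 h replicate 1, at adjusted p values from 0.0588 for YWHAH to 0.125 for MOAP1. This left 2 of the 9 higher and, of the 14, 2 higher and 1 lower.

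Downstream of BAX and BAK1, 3 of 12 genes were higher and 3 lower in control cells at 24 h, against 13.3% and 15.1% of all symbols. In cIAP2 cells 2 were higher and 6 lower, against 14.4% and 22%. CYCS, which encodes cytochrome c, fell by 1.36 (adjusted p = 0.000226) and 1.27 (adjusted p = 0.000249), and ENDOG, a mitochondrial nuclease, by 1.08 and 1.47. CASP9, the initiator caspase of the apoptosome, rose by 1.05 and 0.88, the former 1.00 (adjusted p = 0.0591) without untreated 24 h replicate 1, where 0 of the 12 were higher and 2 lower in control cells. In cIAP2 cells 2 of the 12 were higher and 4 lower without the dim array. None of these 12 genes passed at 6 h in limma in either line.

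**Figure D4:**
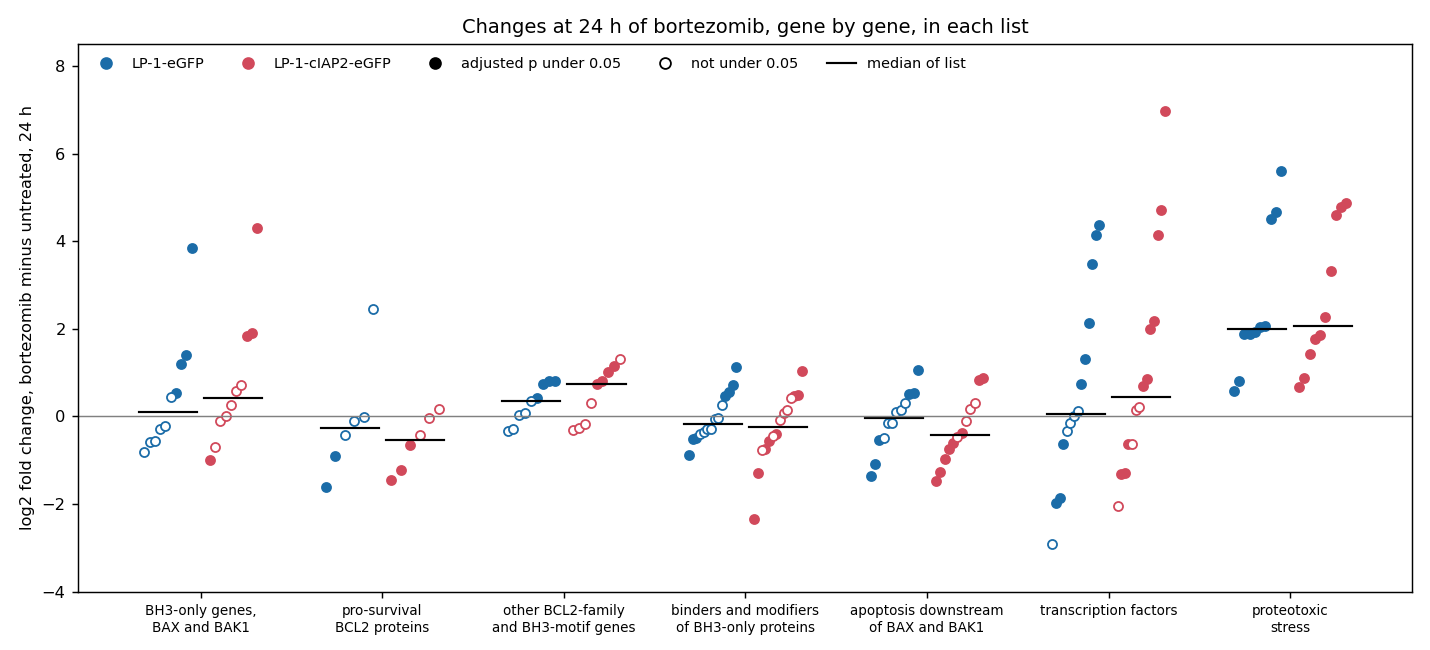
Log2 fold change after 24 h of bortezomib (y axis) of each tested gene in the 10-gene set and in 6 lists of related genes (x axis), LP-1-eGFP in blue and LP-1-cIAP2-eGFP in red. Each point is 1 gene, filled where the adjusted p was under 0.05, and a black line marks the median of the list. PMAIP1 is the highest point of the first group with 3.85 and 4.31, and the pro-survival list holds no filled point above 0.

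The plasma cell markers moved with treatment as well. At 24 h, 5 of 9 were lower and 1 higher in control cells, and 6 of 9 were lower and 0 higher in cIAP2 cells, with medians of -0.95 and -1.46. Of all symbols, 15.1% were lower and 13.3% higher in control cells, and 22% lower and 14.4% higher in cIAP2 cells. Leaving out the dim array, 6 of 9 were lower in cIAP2 cells, with a median of -1.25, and leaving out untreated 24 h control replicate 1, 3 of 9 were lower and 0 higher in control cells, with a median of -0.71. Some also differed between the lines, with SLAMF7 higher in cIAP2 cells by a log2 difference of 5.79 (adjusted p = 2.35e-08), SDC1 higher by 1.42 (adjusted p = 5.1e-06) and CD38 lower by -0.55 (adjusted p = 0.00279), and the other 6 not called. SLAMF7 was named after its values were seen. The part of these markers in the changes and line differences of the BH3-only genes was not tested.

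The genes whose pattern was most like that of PMAIP1 over the 16 arrays, of 9788 genes well above background on all of them, were GOLGB1 (Pearson's r 0.984), GADD45A (0.981), PPP1R15A (0.979), RBM39 (0.978) and SHMT2 (0.978). Their Spearman's rho with PMAIP1 ran from 0.912 to 0.991. GADD45A and PPP1R15A encode growth arrest and DNA damage-inducible proteins, GOLGB1 a Golgi protein, RBM39 a splicing factor and SHMT2 a mitochondrial enzyme of serine metabolism. Within the set, r with PMAIP1 was 0.93 for BBC3, 0.83 for HRK, -0.62 for BMF and -0.83 for BAX. All these arrays share 2 treatments and 2 times, so the correlations describe the common pattern and are not independent of the comparisons above.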

How the data were processed

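Total RNA of 16 cultures was hybridized, 1 sample per array, to an Agilent SurePrint G3 human array with 50599 probes used here. The deposited scanner files hold, per the file headers, spot intensity from Agilent Feature Extraction 10.7.3.1, background-subtracted and detrended within the array, with flags for spots above background. The authors' series table holds log2 values, quantile normalized by the authors in GeneSpring and, as seen from the values, centred on each probe's median. It was used as an alternative only. From the intensities, log2 processed signal was taken, flagged spots were dropped, spots of a probe were averaged and arrays were quantile normalized, as in the methods of the study. Signals of dim probes depend most on this background step.

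Probes were kept if read well above background by both replicates of some condition (33731). Symbols came from RefSeq accessions (GRCh38.p14 table), which named 28174 probes (55.7%). Each gene stands by its brightest tested probe. limma 3.58.1 in R 4.3.3 fitted 1 mean per condition over 16 arrays, and p-values were adjusted by Benjamini-Hochberg over all tested probes, with calls at 0.05. A log2 fold change carries its standard error. The fit was tested on simulated data. The gene set and all lists were chosen with earlier results of these data known, so no list was tested as a set. Named were all 10 members, all pro-survival genes, and from every other list at most 4 genes called in both lines at 24 h, by size. Outside this rule stand BIRC3, the cell identity markers and the genes said to be named after their values were seen. Alternatives were other scaling, background correction, filters, blocks, array weights, probe averaging, a 2-fold rule and leaving out each array. A few listed genes and 1 list are not reported here.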

Additional observations from a re-analysis of the deposited data

Results flagged for a closer look

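One value stood out among the 4 untreated arrays of a line. BAD in LP-1-eGFP was low on 1 of the 4 untreated arrays, replicate 1 at 24 h, with 12.54 against 12.90, 12.93 and 12.94. The gap to the nearest array divided by the whole range was 0.898, above Dixon's 95% critical value for 4 arrays. The 4 arrays pool 2 times, 20 such groups were examined (10 genes in 2 lines), and chance flags about 1 in 20 groups. No explanation was tested.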

How the results depend on the processing

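Of the 60 gene and comparison pairs, none that passed in the reported fit turned direction under the 9 other settings or with any 1 of 16 arrays left out, and 30 pairs were never called. Among pairs that passed only elsewhere, BCL2L11 at 24 h in LP-1-cIAP2-eGFP passed at 1.67 with the dim array alone and was -0.26 without it, and BAK1 there passed once at -0.37 and was 0.16 without the dim array. The 7 pairs called under all 26 settings were PMAIP1 and BBC3 at 24 h in both lines and the line differences of BIK, HRK and BMF. PMAIP1 at 24 h in LP-1-cIAP2-eGFP came to an adjusted p of 0.05 with array weights, which gave both arrays of that condition a weight of 0.121, since 2 replicates cannot show which of them is at fault, and HRK there went to 0.0575. In LP-1-eGFP at 6 h the count of members called, 1 as reported, was 2 with 75th percentile scaling and with normexp background correction, 4 on probes above background on all arrays and with array weights, 3 with the mean of a gene's probes, and 0 with no filter and with the slide as a block. In LP-1-cIAP2-eGFP at 6 h, 1 became 0 with 75th percentile scaling, with no filter and with the slide block. At 24 h in LP-1-eGFP, BAD lost its call with 75th percentile scaling, with normexp, with no filter and with the slide block. BMF and BID gained a call on probes above background on all arrays and with array weights. BID also gained one with the mean of a gene's probes. At 24 h in LP-1-cIAP2-eGFP, 4 became 2 with array weights. There BMF gained a call on probes above background on all arrays, and BAX lost its call with the slide block. The line difference went from 4 to 1 with the 2-fold rule. The share of all symbols called at 6 h in LP-1-eGFP ran from 0.834% with no filter to 21.6% with array weights. For the other comparisons the share under each setting is not given here, so these counts describe the settings and not the members. The cause of these shifts was not tested beyond the construction of each setting.

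Leaving out single arrays, the counts ran from 0 to 3 at 6 h and 2 to 7 at 24 h in LP-1-eGFP, 0 to 1 at 6 h and 3 to 7 at 24 h in LP-1-cIAP2-eGFP, 3 to 7 for the line difference and 0 to 2 for the 24 h interaction. The share of all symbols called ran, in the same order, from 0.281% to 8.8%, 18.4% to 40.8%, 0.319% to 5.34%, 24.1% to 56.9%, 16.6% to 41.9% and 0% to 27.9%. In all but the 6 h comparisons the highest count came only with the highest share. At 24 h in LP-1-eGFP the 2 came without either bortezomib array of that condition and the 7 without either LP-1-cIAP2-eGFP bortezomib 24 h array. At 24 h in LP-1-cIAP2-eGFP, between the lines and in the interaction, the highest count came without replicate 2 of that last condition, which leaves the dim array alone: then BCL2L11 and BID passed in the interaction, with 2.25 (adjusted p = 0.000438) and -0.62 (adjusted p = 0.0358).

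Replicate numbers were not shown to pair the arrays. Over 28 pairs of conditions, the deviations of replicate 1 correlated between -0.11 and 0.24, with a median of 0.04 and 7 pairs over 0.1. With the replicate block, the count at 6 h in LP-1-eGFP was 2, that at 24 h 6, and the other counts stayed at 1, 4, 4 and 0. The share of all symbols called with this block is not given here, so these counts are not read as results about the members.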

Other observations

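Among untreated LP-1-eGFP cells at 24 h, the 2 arrays lay apart for PMAIP1, HRK and BBC3. Replicate 1 was above replicate 2 by a log2 difference of 1.76 for PMAIP1, 0.94 for HRK and 0.79 for BBC3, and by 1.97 each for DDIT3 and ATF3. The heat shock genes went the other way, with differences of -1.45 for HSPA1B and -1.34 for DNAJB1. Without replicate 1, the 24 h changes in LP-1-eGFP were 1.81 for BBC3 (adjusted p = 0.00184) and 1.66 for HRK (adjusted p = 0.00215). This array was chosen after its values were seen.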
